A study of Mus musculus with 6 samples.

Results

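The nuclear genes of mitochondrial oxidative phosphorylation were compared between normoxic AML12 cells and AML12 cells after hypoxia and reoxygenation (H/R). Members were chosen by gene symbol: symbols that begin with Nduf, Uqcr, Cox4 to Cox8 or Atp5, and Sdha, Sdhb, Sdhc and Sdhd, without pseudogene rows marked -ps. This gave 90 of the 25330 genes in the deposited tables. There were 36 complex I subunits, 4 of complex II, 8 of complex III, 17 of complex IV and 15 of complex V. The symbols also took in 8 assembly factors of complex I (Ndufaf1 to Ndufaf8), and Atp5s and Atp5sl, which are not ATP synthase subunits. Ndufa4 and Ndufa4l2 were counted with complex IV, where the NDUFA4 protein is now placed. The 5 excluded pseudogene rows held at most 8 counts in any library.

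Oxidative phosphorylation passes electrons from NADH (complex I) and succinate (complex II) through ubiquinone to complex III, and from there through cytochrome c to oxygen at complex IV. Complexes I, III and IV pump protons across the inner mitochondrial membrane, and complex V, the ATP synthase, uses the return flow to make ATP. Most subunits are encoded in the nucleus and imported, while the mitochondrial genome encodes the remaining core subunits. Hepatocytes are rich in mitochondria and rely on this pathway for urea, glucose and bile acid metabolism. Ndufa4l2 and Cox4i2 are known as hypoxia-inducible counterparts of Ndufa4 and Cox4i1 in many cell types.

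AML12 is an established line of mouse hepatocytes. The 3 control libraries came from wild-type AML12 cells kept in 21% oxygen, and the 3 H/R libraries from wild-type AML12 cells exposed to 1% oxygen for 6 h, with 2 h of reoxygenation after it. Both groups were grown in DMEM/F12 with fetal bovine serum, insulin-transferrin-selenium and dexamethasone. The H/R cells were moved to serum-free and glucose-free medium for the hypoxia, so oxygen, serum and glucose cannot be told apart. All libraries came from a single line in culture, and no label says whether replicates were separate cultures. The p-values therefore measure only the spread between these samples, which may be technical. In bulk RNA, fewer expressing cells and less RNA per cell cannot be told apart.

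Library totals ranged from 21026650 to 21854790 counts in the control group and from 20438746 to 21742441 in the H/R group, and the members held between 169931 and 188981 of them. Of 14 hepatocyte markers, 10 were high enough to be tested. Krt8 and Krt18 rose and 8 fell, with log2 fold changes from -3.07 (Ttr) to -0.41 (Hnf4a) and a median of -0.92 over the 10. Without control replicate 1, 6 of the 8 falls still passed. The markers too low to be tested, Serpina1a, Cps1, Tat and Fgb, were close to absent in most libraries. They had at most 1 count outside control replicate 1. That library stood apart, with 61 counts of Serpina1a, 52 of Fgb and 18 of Cps1, and with 131335 counts of the ribosomal transcript Rn18s-rs5 against 28347 to 43775 elsewhere. Endothelial markers had at most 4 counts and stellate cell markers at most 16. Of the leukocyte markers, Ptprc, Adgre1, Clec4f and Lyz2 had at most 5 counts, while Cd68 rose from between 16 and 22 to between 113 and 137 counts and Csf1r from between 42 and 57 to between 60 and 79. The cholangiocyte markers Krt19 and Krt7 rose by log2 fold changes of 1.00 and 0.79, and Sox9 from between 160 and 200 to between 896 and 1013 counts. Summed CPM went from between 4197 and 4544 to between 6142 and 6172 for the hepatocyte list, from between 3.05 and 3.71 to between 8.61 and 10.1 for the leukocyte list and from between 1321 and 1486 to between 2439 and 2533 for the cholangiocyte list. The hepatocyte sum rose through Krt8 and Krt18, since the other tested markers of that list fell. The part of all these cell type markers in the changes of the members was not tested.

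Transcripts of the pathway moved in both directions and by small amounts. Of the 90 genes, 87 passed the filter on low counts, and Ndufa4l2, Cox4i2 and Cox7b2 did not. Among the 87, 25 were higher and 24 lower after H/R at an adjusted p under 0.05 (edgeR's quasi-likelihood test, Benjamini-Hochberg over all 14020 tested genes), and 38 did not pass. The 49 called members were 56.3% of those tested, beside 62.8% of all tested genes called, 31% higher and 31.8% lower. By complex the called share of tested subunits was 55.6% (I), 50% (II), 75% (III), 42.9% (IV) and 53.3% (V). Only Cox6a2, which rose, and Atp5s, which fell, also passed a 2-fold change, which 8.52% of all tested genes did. Cox6a2 passed the filter through the H/R libraries alone, and where every library needed 10 counts the number past both thresholds was 1. At a 1.5-fold change the count was 7, against 24.4% of all tested genes. The median log2 fold change of the members was -0.03 and that of all tested genes -0.01. In absolute size the median log2 fold change was 0.162 for the members and 0.330 for all tested genes. Of the 87, 75 (86.2%) lay within 0.35 of 0 in either direction, as did 52.4% of all tested genes. These comparisons were not matched for expression level, and 82 of the 87 members had a mean count of at least 100. The 3 control and 3 H/R values did not overlap for 52 members and for 65.9% of all tested genes.

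At changes this small the scaling of the libraries decided many calls. Under library totals in place of TMM factors (edgeR's trimmed mean of M values), the median of all tested genes moved from -0.01 to -0.12, and the members split into 12 higher and 40 lower. Of the 38 members that did not pass under TMM, 16 were lower under library totals and 12 under upper quartile scaling, and none was higher under either. Under upper quartile scaling the median of all tested genes was -0.08. The text therefore also says which genes were called in the same direction under all 4 scalings tried (TMM, DESeq2 size factors, upper quartile and library totals). These were 12 higher and 18 lower members, beside 23.3% and 25.1% of all tested genes. The sign of the fold change was the same under all 4 for 78 of the 87. Without control replicate 1, 22 members were higher and 23 lower, and 36 of the 49 calls held whichever library was left out. The share of calls that held in this way was not worked out for all tested genes.

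**Figure D1:**
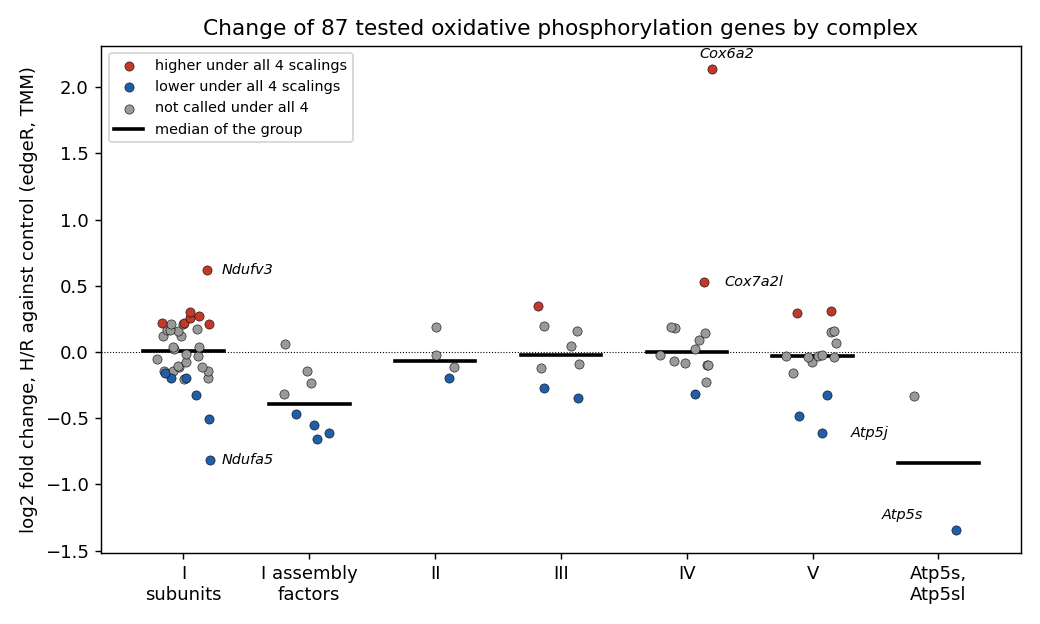
Log2 fold change (H/R against control, edgeR with TMM scaling) of the 87 tested genes, each point a gene, by complex, with a bar at the median of each group. Red and blue points were called higher or lower under all 4 scalings, and most points lie within 0.35 of 0. The complex I assembly factors have the lowest median of the groups with more than 2 genes (-0.39), and Cox6a2 stands alone at 2.14.

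Promoter sequence was examined because nuclear genes of this pathway are known targets of the factors NRF1, GABP (an ETS factor) and YY1, and genes with hypoxia response elements (HRE) are bound by HIF. RefSeq windows of the 250 bases before a gene's start on GRCm38.p6 were matched to 75 of the 90 genes (81 windows), and exact letters were searched on both strands, each motif counted by itself even where matches overlapped. The NRF1 letters GCGCATGC were in 9 of the 81 windows (11.1%) and in 2.26% of all 32851 windows. ETS letters, CCGGAAG, were in 14 (17.3%, against 6.91%), and YY1 letters, AAGATGGC, in 2 (2.47%, against 1.56%). The HRE letters ACGTG or GCGTG were in 45 (55.6%, against 38.6%), and the SP letters GGGCGG in 30 (37.0%, against 32.7%). A match describes the sequence and not a bound site. RefSeq starts can differ from the gene starts of the deposited tables. The stretches shown for Sdhb, Ndufb7 and Atp5j lie inside the spans that those tables give for these genes. The following stretches hold the NRF1 letters in capitals, with up to 10 bases on either side, for the gene that rose and the 3 that fell under all 4 scalings.
Atp5g2, chr15:102671072-102671099, minus strand: ggctccggccGCGCATGCgcagagcctt
Atp5k, chr5:108434432-108434459, minus strand: tttcactgcgGCGCATGCgcctttctgg
Ndufaf4, chr4:24897960-24897987, plus strand: ccagatgtctGCGCATGCgcctgtgcgg
Sdhb, chr4:140961207-140961234, minus strand: ggcccgtaggGCGCATGCccactgggct
The other 5 genes with these letters (Atp5l, Cox6a1, Ndufa6, Ndufa8 and Ndufa11) were not called under all 4 scalings. The same letters thus preceded the RefSeq starts of genes that rose, fell and did neither. The median log2 change was -0.02 among the 9 and -0.08 among the 65 tested members without the letters.

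Atp5j and Ndufb7, which were among the members with the clearest falls, held ETS letters, and Atp5j also held YY1 letters. These genes were picked with their falls known. They are shown with the letters in capitals, first the ETS match of each gene and then the YY1 match of Atp5j.
Atp5j, chr16:84835021-84835047, minus strand: gctgagggacCCGGAAGcacttaccct
Ndufb7, chr8:83566728-83566754, plus strand: cctagatgacCCGGAAGacactgaagg
Atp5j, chr16:84835047-84835074, minus strand: aagtgtaggaAAGATGGCggagtcttag
Of the 14 members with ETS letters, 4 were lower and none was higher under all 4 scalings. Of the 60 tested members without these letters, 14 were lower and 8 higher, beside 25.1% and 23.3% of all tested genes. For HRE letters, 2 of 41 tested members with a match were higher and 9 lower, and 6 of 33 without one were higher and 9 lower. Ndufv3, the complex I gene with the largest rise, is shown with its 140 bases before the start. Capitals mark its HRE letters, which begin 100 and 60 bases before the start, the former on the opposite strand.
Ndufv3, chr17:31519975-31520114, plus strand: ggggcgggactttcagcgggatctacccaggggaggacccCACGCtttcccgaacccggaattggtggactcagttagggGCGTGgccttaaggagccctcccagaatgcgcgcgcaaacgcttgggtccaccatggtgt
Cox7a2l, whose rise was of similar size, held none of the NRF1, ETS, YY1 or HRE letters in its 250 bases.

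The hypoxia isoforms stayed at trace level. Ndufa4l2 was at the floor in both groups. Its raw counts were 0, 0 and 1 in the control libraries and 0, 0 and 0 in the H/R libraries. A limit of 3 counts per library corresponds to at most 0.143 to 0.153 RPKM (reads per kilobase of exon, scaled to the library total), or 0.453% to 0.728% of Ndufa4 per exon length in the same library. No fold change or ratio is given for it. A share below this limit was not detectable at this depth.

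Its counterpart Ndufa4 (chr6:11900292-11907497, minus strand) fell. TMM-normalized counts (counts brought to a common effective library size) were 902, 827 and 833 in the control libraries and 639, 692 and 726 in the H/R libraries. Every H/R library lay below every control library, and the mean went from 854 ± 41.8 to 686 ± 43.8 (SD, n = 3). The log2 fold change was -0.32 (SE 0.061, adjusted p = 2.95e-05), and Ndufa4 was lower under all 4 scalings.

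Cox4i2, the alternative form of the regulatory subunit IV, had raw counts of 3, 1 and 2 in the control libraries and 8, 4 and 7 in the H/R libraries. All H/R counts were above all control counts, although every control count was at or below the floor of 3 per library. The summed counts, 6 in control and 19 in H/R, gave a ratio of 3.49 per effective library size with an exact 95% interval of 1.34 to 10.7, which covers counting error only. Cox4i2 was removed by the filter on low counts. Without the filter edgeR gave a log2 fold change of 1.74 (SE 0.766, adjusted p = 0.0646), which did not pass.

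Cox4i1 (chr8:120668222-120674207, plus strand), the ubiquitous form, held nearly all of the expression of this pair. Its TMM-normalized counts were 5098, 4879.5 and 5102 in the control libraries and 5269.9, 5307 and 5484 in the H/R libraries, and its log2 fold change was 0.09 (SE 0.041, adjusted p = 0.0501), just short of the threshold, and -0.01 under library totals. Some of its exons overlap those of Emc8 (0.0994 of its exon length), which fell from between 1232 and 1526 to between 702 and 830 counts, and how reads in the overlap were assigned was not tested. Per exon length, Cox4i2 was 0.110%, 0.0393% and 0.0726% in the control libraries and 0.322%, 0.160% and 0.251% in the H/R libraries of Cox4i1. This ratio within a library does not depend on scaling, and it was 1.53 on the log2 scale higher after H/R (p = 0.1 in an exact two-sided permutation test, which cannot go lower with 3 against 3). The highest of the 6 values was 0.322%.

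**Figure D2:**
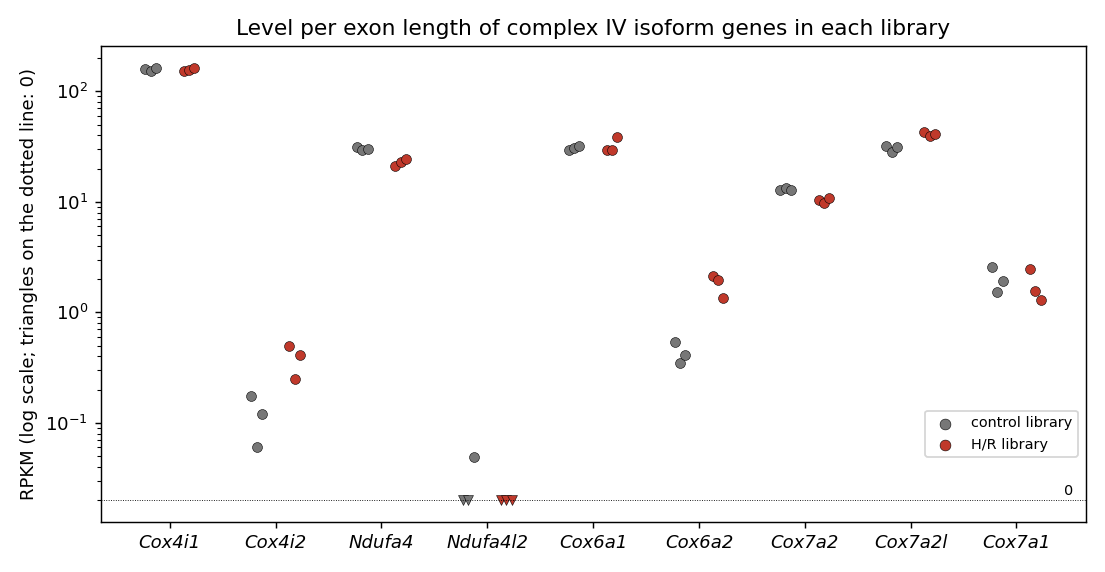
Deposited RPKM of complex IV isoform genes in each library on a log axis, grey for control and red for H/R, with triangles on the dotted line for libraries at 0. Cox4i1 lay far above Cox4i2 in every library, Ndufa4l2 was at 0 in 5 of the 6 libraries, and the Cox6a2 and Cox7a2l groups did not overlap.

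Complex I, the NADH dehydrogenase, had 13 higher and 7 lower of 36 tested subunits, 7 and 6 under all 4 scalings, with a median log2 fold change of 0.00. Its peripheral arm holds the N module, which oxidizes NADH, and the Q module, which reduces ubiquinone. In the N module 5 of 11 subunits were higher and 2 lower. Ndufv1 carries the flavin and Ndufs1 several iron-sulfur clusters, and their log2 fold changes were 0.21 (adjusted p = 0.000593) and 0.12 (adjusted p = 0.0255). Under library totals neither passed, at 0.11 and 0.01. Ndufs1 also did not pass under upper quartile scaling (0.05), and it passed in only 1 of the 6 fits that left out a library. A fraction of 0.0616 of its exon length overlaps other genes, among them Eef1b2. Eef1b2 had 25496 to 29664 counts in control and 29413 to 32999 in H/R, with a log2 fold change of 0.35. How reads in the overlap were assigned was not tested.

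Ndufv3 (chr17:31520115-31531326, plus strand), an accessory subunit beside the flavin site, rose the most. TMM-normalized counts were 1359, 1381 and 1485 in the control libraries and 2324, 2081 and 2079.6 in the H/R libraries, and the mean went from 1408 ± 67.2 to 2162 ± 141 (SD, n = 3). The lowest H/R library exceeded the highest control library by a wide margin, and the log2 fold change was 0.62 (SE 0.051, adjusted p = 1.14e-12). Ndufs4, an accessory subunit whose loss in mice causes a Leigh-like disease, rose with a log2 fold change of 0.30 (SE 0.048, adjusted p = 1.52e-06). Ndufab1, the mitochondrial acyl carrier protein, and Ndufs6, a zinc-binding subunit, were lower, with log2 fold changes of -0.20 (adjusted p = 0.00208) and -0.16 (adjusted p = 0.0038). Both were lower under all 4 scalings.

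Ndufa5 (chr6:24518666-24528013, minus strand), an accessory subunit of the Q module, showed the largest fall among all subunits tested. Its TMM-normalized counts were 1423, 1506 and 1351 in the control libraries and 822, 802 and 808 in the H/R libraries. No H/R library came near the control range, and the mean went from 1427 ± 77.5 to 811 ± 9.92 (SD, n = 3). The log2 fold change was -0.81 (SE 0.054, adjusted p = 3.44e-15), a fall of 43.2%. Its neighbour in the same module went the other way: Ndufa9, which binds NADPH, rose with a log2 fold change of 0.22 (adjusted p = 0.00014). Ndufs3, Ndufs7 and Ndufs8, core subunits of the Q module, did not pass, with log2 fold changes of 0.02, -0.08 and -0.01, although Ndufs8 was lower under library totals (-0.12).

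In the proton-pumping membrane arm 6 of 19 subunits were higher and 4 lower. Ndufb7 (chr8:83566671-83571626, plus strand), an accessory subunit on the intermembrane space side, fell from a mean of 1519.9 ± 54.2 to 1072 ± 37.6 normalized counts (SD, n = 3). Single values were 1582, 1483 and 1494 in the control libraries and 1087, 1100.1 and 1029 in the H/R libraries, so the groups lay apart. The log2 fold change was -0.50 (SE 0.051, adjusted p = 1.32e-10). Ndufc1 and Ndufs5 were also lower under all 4 scalings, with log2 fold changes of -0.33 (adjusted p = 0.00133) and -0.19 (adjusted p = 0.00468). Ndufa10, Ndufb11 and Ndufb9 were higher under all 4, with log2 fold changes of 0.27, 0.26 and 0.21. Most others lay close to 0: Ndufb8, among the best covered with normalized counts between 5622 and 6455, changed by -0.05 (adjusted p = 0.332) on the log2 scale, which did not pass, but was lower under upper quartile scaling (-0.12) and library totals (-0.16).

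The 8 complex I assembly factors were lower or did not pass. These proteins help to build the complex and leave it when it is mature. Of the 8, 5 were lower and none was higher, 4 of the 5 under all 4 scalings, and the median log2 fold change was -0.39. The called share was 62.5%, beside 62.8% of all tested genes, and 31.8% of all tested genes were called lower. Ndufaf7, a methyltransferase, had TMM-normalized counts of 511, 495 and 524 in the control libraries and 310.2, 330.0 and 331 in the H/R libraries, and its log2 fold change was -0.66 (SE 0.075, adjusted p = 2.24e-09). The groups were far apart, with H/R values of at most 331. Log2 fold changes were -0.61 (adjusted p = 2.35e-07) for Ndufaf4, -0.55 (adjusted p = 5.02e-06) for Ndufaf1 and -0.47 (adjusted p = 9.81e-09) for Ndufaf2. Ndufaf8 passed under TMM with -0.23 (adjusted p = 0.0361) but not under all 4 scalings. Ndufaf3, Ndufaf5 and Ndufaf6 did not pass, with log2 fold changes of -0.31, 0.06 and -0.14. Summed, the 8 genes held 0.0146%, 0.0150% and 0.0154% of the control library totals and 0.0103%, 0.0106% and 0.0108% of the H/R totals (29.5% less, exact two-sided permutation test, p = 0.1).

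Complex II, succinate dehydrogenase, splits into a catalytic part (SDHA with its flavin and SDHB with its iron-sulfur clusters) and a membrane anchor (SDHC and SDHD). The catalytic genes moved apart. TMM-normalized counts of Sdha (chr13:74322254-74350280, minus strand) were 4666, 4181 and 4276 in the control libraries and 5005, 5114 and 4849 in the H/R libraries, with a log2 fold change of 0.19 (SE 0.044, adjusted p = 0.000332). Those of Sdhb (chr4:140961203-140979193, plus strand) were 1010.3, 943 and 1011 in the control libraries and 833, 902 and 849 in the H/R libraries, with a log2 fold change of -0.20 (SE 0.056, adjusted p = 0.00242). Neither gene's groups overlapped. Sdhb was lower under all 4 scalings, whereas Sdha did not pass under library totals, at 0.09. The anchor genes Sdhc and Sdhd did not pass, with log2 fold changes of -0.02 and -0.11. Sdhd was lower under upper quartile scaling (-0.18) and library totals (-0.22).

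Complex III, cytochrome c reductase, had 3 higher and 3 lower of 8 tested subunits. The higher ones were its large core proteins and the Rieske protein, and the lower ones were small subunits. Uqcrc2 (chr7:120635176-120659524, plus strand), a core protein, rose from a mean of 931 ± 71.0 to 1184 ± 41.6 normalized counts (SD, n = 3). Its values were 948, 852 and 991 in the control libraries and 1136, 1214 and 1200.2 in the H/R libraries, and the log2 fold change was 0.35 (SE 0.057, adjusted p = 2.48e-06). A fraction of 0.197 of its exon length is shared with Pdzd9, which had 120 to 159 counts in control and 155 to 197 in H/R. Uqcrc1 and Uqcrfs1, the Rieske iron-sulfur protein, had log2 fold changes of 0.19 (adjusted p = 0.00128) and 0.16 (adjusted p = 0.00625), and neither passed under library totals, at 0.09 and 0.05.

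Uqcr10 and Uqcr11 are small accessory subunits of complex III. Uqcr10 had TMM-normalized counts of 486, 475 and 551 in the control libraries and 429.7, 404 and 356 in the H/R libraries, and its log2 fold change was -0.35 (SE 0.079, adjusted p = 0.000282). For Uqcr11 the counts were 1602, 1530.3 and 1517 in the control libraries and 1313, 1287 and 1258 in the H/R libraries, with a log2 fold change of -0.27 (SE 0.049, adjusted p = 1.11e-05). The groups of both genes lay apart, and both were lower under all 4 scalings. Uqcrh passed under TMM with -0.12 (adjusted p = 0.0438) but its groups overlapped, and Uqcrb and Uqcrq did not pass, with -0.09 and 0.05. Uqcrb was lower under upper quartile scaling (-0.16) and library totals (-0.20).

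Complex IV, cytochrome c oxidase, had 4 higher and 2 lower of 14 tested genes, with a median log2 fold change of 0.00. Among the 11 common subunits, Cox5b and Cox8a were higher under TMM, with log2 fold changes of 0.15 (adjusted p = 0.00312) and 0.18 (adjusted p = 0.0109). Cox7a2 was lower there, with -0.22 (adjusted p = 0.0363). None of these 3 was called under all 4 scalings, and in that group only Ndufa4 was. Cox6a1 did not pass, with a log2 fold change of 0.19 (adjusted p = 0.055). Cox5a, Cox6b1, Cox6c, Cox7b and Cox7c did not pass either, with log2 fold changes between -0.10 and 0.02. Of these, Cox5a, Cox6c, Cox7b and Cox7c were lower under library totals, with -0.20, -0.13, -0.17 and -0.20.

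Of the 6 alternative isoforms of complex IV, 3 were high enough to be tested, and 2 of these, Cox7a2l and Cox6a2, were called higher. Cox7a2l (chr17:83501919-83514333, minus strand), known as a factor that joins complexes III and IV into supercomplexes, had TMM-normalized counts of 766, 670.0 and 723 in the control libraries and 1089, 991 and 1027 in the H/R libraries. The groups were well separated, and the log2 fold change was 0.52 (SE 0.059, adjusted p = 1.65e-09). Cox6a2 (chr7:128205435-128206387, minus strand), the heart and skeletal muscle form of subunit VIa, rose from raw counts of 8, 5 and 6 in the control libraries to 30, 27 and 20 in the H/R libraries. It had the largest fold change of all members, 2.14 (SE 0.366, adjusted p = 5.07e-06), at a low level: 1.81 ± 0.409 RPKM after H/R against 32.4 ± 5.28 for Cox6a1 (SD, n = 3). All its control counts were below 10, so it passed the filter on low counts through the H/R libraries alone. A fraction of 0.103 of its exon length overlaps Itgad, which had 0 or 1 count per library. Cox7a1, the muscle form of subunit VIIa, had raw counts of 30, 17 and 22 in the control libraries and 27, 17 and 15 in the H/R libraries and a log2 fold change of -0.08 (adjusted p = 0.827), and its groups overlapped. Cox7b2, known from testis, had at most 3 counts.

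Complex V had 4 higher and 4 lower of 15 tested subunits, with a median log2 fold change of -0.03. In the catalytic F1 head, which binds ADP and phosphate, Atp5b (subunit beta, chr10:128083273-128090391, plus strand) had TMM-normalized counts of 24933, 22720.1 and 23244 in the control libraries and 28435, 29530.0 and 28944 in the H/R libraries. All H/R values were higher, and the log2 fold change was 0.29 (SE 0.046, adjusted p = 1.26e-06), a call made under all 4 scalings. Atp5a1 (subunit alpha) had a log2 change of 0.15 (adjusted p = 0.00546) and Atp5c1 (subunit gamma, the rotor shaft) one of 0.16 (adjusted p = 0.00215). Neither passed under upper quartile scaling (0.08 and 0.09) or library totals (0.05 for both). Atp5d and Atp5e, the other rotor shaft subunits, did not pass, with 0.07 and -0.03.

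Atp5j (chr16:84827866-84835625, minus strand), coupling factor 6 of the peripheral stalk, had the largest fall among the complex V subunits. TMM-normalized counts were 5455, 5359 and 5011 in the control libraries and 3515, 3425 and 3393 in the H/R libraries, and the mean went from 5275 ± 234 to 3444 ± 63.6 (SD, n = 3). The log2 fold change was -0.61 (SE 0.043, adjusted p = 1.19e-14), a fall of 34.7%. A fraction of 0.127 of its exon length is shared with Gabpa, the head-to-head neighbour, whose log2 fold change was -0.00 (adjusted p = 0.977). The other stalk genes Atp5f1, Atp5h and Atp5o did not pass, with log2 fold changes of -0.04, -0.03 and -0.03. Atp5f1 and Atp5h were lower under upper quartile scaling (-0.11 and -0.10) and library totals (-0.14 for both).

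Subunit c, the proton-binding ring of complex V, is made from 3 genes that encode the same mature protein, and these differed in direction. Atp5g1 had TMM-normalized counts of 349, 310.2 and 354 in the control libraries and 266, 239 and 302 in the H/R libraries, and its log2 fold change was -0.33 (SE 0.092, adjusted p = 0.00241). For Atp5g2 the counts were 728, 699 and 677 in the control libraries and 898, 865 and 843 in the H/R libraries, with a log2 fold change of 0.31 (SE 0.058, adjusted p = 1.97e-05). Both were called under all 4 scalings. For Atp5g3 they were 893, 921 and 979 in the control libraries and 849.8, 772 and 876 in the H/R libraries, with a log2 fold change of -0.16 (SE 0.059, adjusted p = 0.0181), a call that DESeq2 did not make. Per exon length Atp5g1 had the lowest value of the 3, at 3.37 RPKM in control against 20.5 for Atp5g2 and 20.9 for Atp5g3. This gap depends on the length used as divisor. The longest protein-coding reference transcript has 4715 bases for Atp5g1, 753 for Atp5g2 and 723 for Atp5g3. Atp5k (subunit e, which takes part in ATP synthase dimers) had counts of 703, 875 and 720.2 in the control libraries and 494, 559 and 584 in the H/R libraries. Its groups lay apart, and the log2 fold change was -0.49 (SE 0.081, adjusted p = 2.75e-05).

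The 2 genes that carry an Atp5 symbol without being ATP synthase subunits were both lower. Atp5s had raw counts of 38, 27 and 36 in the control libraries and 10, 11 and 15 in the H/R libraries, and its log2 fold change of -1.34 (SE 0.297, adjusted p = 0.000192) was the largest fall of all members. Atp5sl, also known as DMAC2 and linked to complex I assembly, changed by -0.33 (adjusted p = 0.0257) on the log2 scale but was not called under all 4 scalings.

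**Figure D3:**
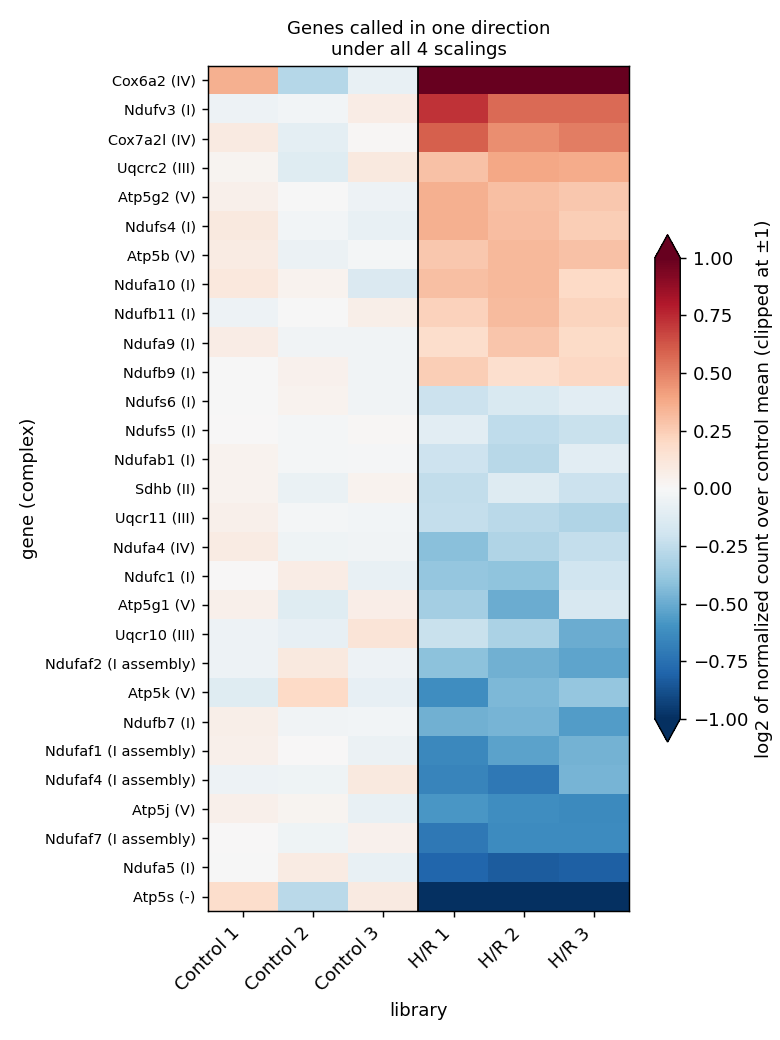
Log2 of the TMM-normalized count over the control mean in each of the 6 libraries (color scale clipped at 1 in either direction) for 29 of the 30 genes called in the same direction under all 4 scalings. For each gene the 3 H/R libraries lie on the same side of the control mean, and Cox6a2 and Atp5s reach the end of the color scale.

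Ratios of genes of the same complex within a library do not depend on scaling. The pairs were chosen after the values were seen, and 3 against 3 libraries cannot give an exact permutation p below 0.1, so they are given as descriptions. Per exon length, Atp5j was 29.6%, 31.9% and 29.2% in the control libraries and 16.7%, 15.7% and 15.9% in the H/R libraries of Atp5b, a fall to 0.533 of the control ratio, with no overlap between groups.

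Sdhb was 37.5%, 39.1% and 41.0% in the control libraries and 28.8%, 30.6% and 30.4% in the H/R libraries of Sdha, and Atp5g1 was 16.4%, 15.1% and 17.8% in the control libraries and 10.1%, 9.44% and 12.2% in the H/R libraries of Atp5g2. These ratios fell to 0.763 and 0.642 of control. The percentages depend on the exon lengths used as divisors, and the falls do not. Rising ratios were found for Cox7a2l to Cox7a2, from between 215% and 250% to between 379% and 416%, and for Ndufv3 to Ndufv1, from between 64.1% and 71.4% to between 82.5% and 97.9%. The ratio of Cox6a2 to Cox6a1 went from between 1.14% and 1.84% to between 3.52% and 7.36%, a mean 3.75-fold rise. Each of these had an exact two-sided permutation p of 0.1. The ratio of Atp5g1 to Atp5g3 overlapped between groups (exact permutation p = 0.2), as did that of Cox7a1 to Cox7a2 (exact permutation p = 0.7).

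**Figure D4:**
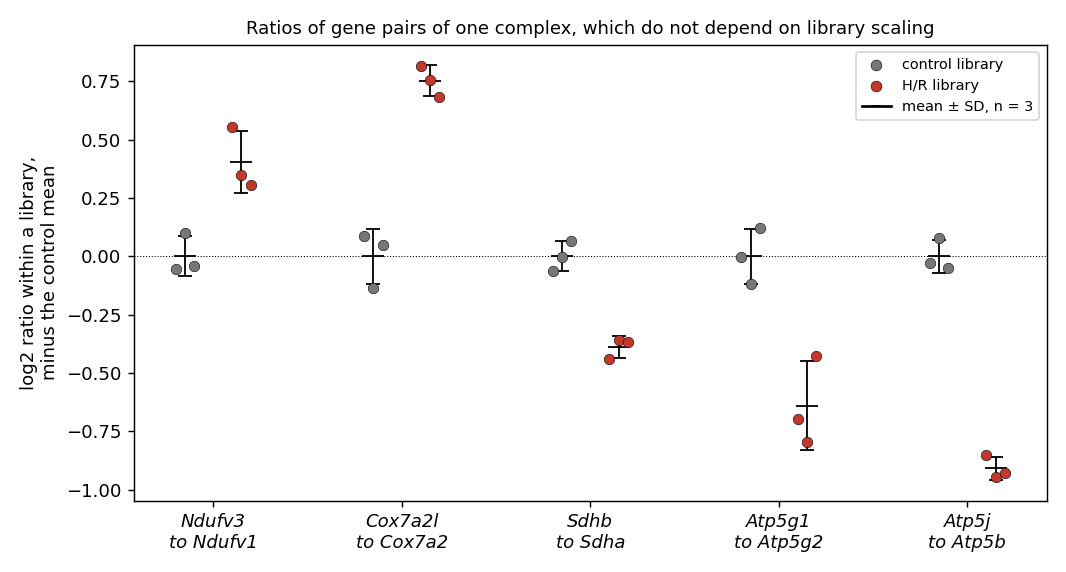
Log2 ratio of counts per exon length of 5 gene pairs in each library, minus the control mean, with mean ± SD (n = 3) and grey points for control and red for H/R. The groups do not overlap for any of these pairs, and the ratio of Atp5j to Atp5b fell the most.

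As a whole the pathway kept its share of the transcriptome within a few percent, and the sign of the difference depended on the scaling. The 90 genes together held 0.865%, 0.841% and 0.858% of the control library totals and 0.828%, 0.835% and 0.833% of the H/R totals. This was 2.66% lower after H/R (exact two-sided permutation test, p = 0.1). Over TMM effective sizes the summed share was 4.66% higher instead (exact permutation p = 0.1). By complex and over library totals, the share was 3.75% lower for complex I, 5.32% lower for complex III and 3.22% lower for complex IV, with exact permutation p of 0.1, 0.1 and 0.2. Complex II and complex V were 1.12% and 0.0382% lower, with overlapping groups and exact permutation p of 0.8 and 1.0. Over TMM effective sizes every complex was higher, complex V by 7.47% and complex III by 1.78%. The assembly factors were lower under both, by 29.5% and 24.2%.

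**Figure D5:**
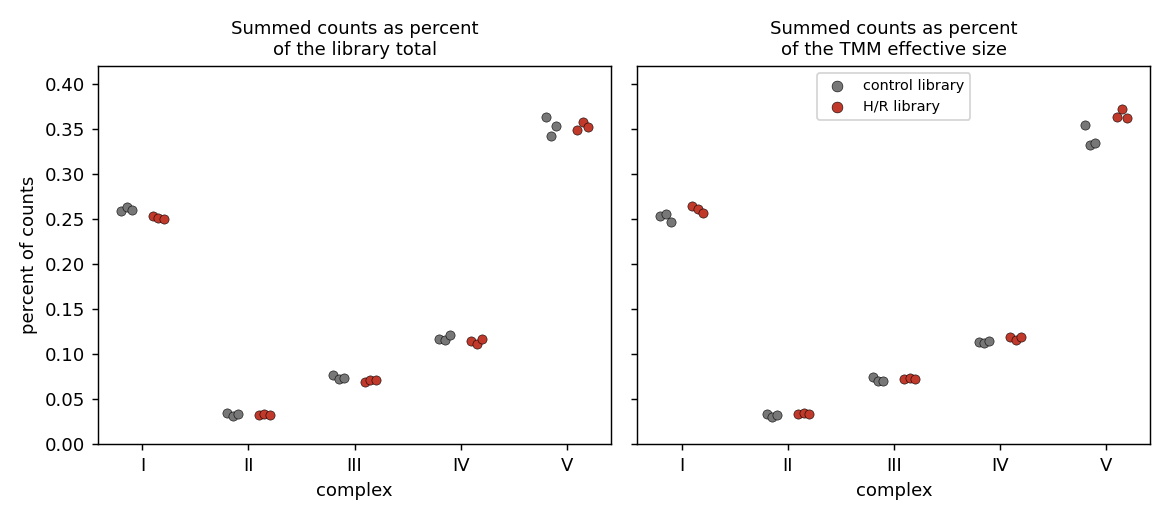
Counts of the subunits summed by complex, as percent of the library total (left) and of the TMM effective size (right), each point a library. Complex V held the most counts (near 0.35%) and complex II the fewest (near 0.03%). Control and H/R points change order between the panels for complex I. The groups overlap on the left for complexes II, IV and V and on the right for complex III.

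Levels per exon length differed far more between subunits than between groups. Mean control RPKM ran from 2.25 to 183 in complex I (median 40.2), from 11.9 to 55.1 in complex II (23.2), from 17.9 to 171 in complex III (48.9), from 0.0163 to 196 in complex IV (30.6) and from 3.37 to 288 in complex V (20.9). Atp5a1 and Atp5b were the highest members, at 288 and 273 RPKM, and Cox5b led complex IV at 196. Annotated exon length includes untranslated parts, so subunits of equal amount in the protein can differ on this scale. It can also exceed the longest protein-coding reference transcript, with 4522 against 623 bases for Ndufb7 and 8086 against 2661 for Ndufs1. Low values per exon length can thus reflect a long divisor. Over the 87 tested members, which share the same 6 libraries, the log2 fold change had Pearson's r of -0.06 and Spearman's rho of 0.04 with log2 exon length, and 0.03 and 0.23 with log2 control RPKM. These are descriptions across genes, which are not independent replicates.

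Reads of some members could belong to other genes. Exons of 26 members overlap another gene's, none by more than 0.5 of the exon length, and whether reads were counted by strand is not given in the sources used here. Of 89 members with a reference transcript, 30 held at least a 100-base window that also occurs in another gene's transcript. The most shared other transcript was a processed pseudogene for 11 of the 30 and protein-coding for 9. Only Atp5l had more than 50% of its windows shared (69.0%), with Ndufb4 (33.4%) and Atp5h (29.5%) next, and none of these 3 passed the test.

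Genes of the pathway outside the symbol rule were counted from a list. Of 4 tested subunits and carriers, 1 was higher and 3 lower, so 100% were called, beside 62.8% of all tested genes. Cycs, cytochrome c itself, had TMM-normalized counts of 4051, 3870.1 and 4078 in the control libraries and 3139.5, 3202 and 3078 in the H/R libraries, and its log2 fold change was -0.35 (SE 0.042, adjusted p = 6.96e-09). Cyc1, the cytochrome of complex III, had 0.13 (adjusted p = 0.0461) and Usmg5, a small ATP synthase subunit, -0.25 (adjusted p = 0.0124), neither of them called under all 4 scalings. Among 44 tested assembly factors of complexes I to V outside the rule, 4 were higher and 21 lower, 2 and 19 under all 4 scalings, with a median log2 fold change of -0.20. The 25 called were 56.8% of these, beside 62.8% of all tested genes. Under all 4 scalings, 23.3% of all tested genes were higher and 25.1% lower. Among the largest falls were those of Sdhaf4 (complex II, -1.03 (adjusted p = 6.53e-07)), Atpaf1 (which folds the F1 head, -0.92 (adjusted p = 4.01e-09)) and Timmdc1 (membrane arm of complex I, -0.76 (adjusted p = 1.28e-12)). In the other direction, Higd1a, a hypoxia-inducible protein that binds complex IV, had 0.72 (adjusted p = 8.03e-13) and Cox18, which inserts COX2 into the membrane, 0.55 (adjusted p = 0.00125).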

How the data were processed

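Poly(A) RNA of 6 AML12 libraries was sequenced by the authors with paired ends, mapped to GRCm38 and counted per gene with featureCounts of Subread 1.5.1 (Trimmomatic 0.36 and edgeR 3.12.1 are also named in the submitters' processing notes). The annotation release and strand setting are not given in the sources used here. The deposited counts are whole reads per gene without normalization, and the deposited RPKM values equal counts per exon length and library total. RPKM served for levels per length. Coordinates are those of the deposited tables.

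Groups and replicate numbers came from the sample labels. Counts were fitted with edgeR 4.0.16 (R 4.3.3): filterByExpr, TMM, robust quasi-likelihood, group as the only term, Benjamini-Hochberg over 14020 genes, threshold 0.05. The common biological coefficient of variation was 0.0502. Log2 fold changes are H/R minus control. Ratios and summed shares were compared with exact permutation tests (SciPy 1.17.1), with 0.5 count added to each gene for ratios. The floor was 3 counts per library. Alternatives used DESeq2 1.42.0, limma 3.58.1, other scalings and filters, a length offset, a replicate block and leaving out each library. Same-numbered libraries did not deviate together (correlations -0.03, 0.00 and -0.01 over 14020 genes), so replicate numbers were not taken as pairs. All replicate pairs differed by more than counting noise (chi-square per degree of freedom 2.19 to 16.2). The fit was tested on simulated data.

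Named genes were the 4 isoform genes, members past both thresholds, the 2 largest and 2 smallest called changes per complex with a mean count of at least 100, catalytic and subunit c genes, and the leading pathway genes by the same measure. A gene that this rule takes in is not reported here by name. Other members are named to account for each group and were chosen after their values were seen. The members and lists were chosen with earlier results of these data known.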

Additional observations from a re-analysis of the deposited data

How the results depend on the processing

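Counts of calls depended on scaling. The 25 higher members became 15 under upper quartile scaling, 12 under library totals, 10 with limma on log2 RPKM whether 1 or 0.1 was added, and 12 when a call under all 4 scalings was required, an alternative added after seeing the data. The 24 lower members became 40 under library totals and 42 under each limma setting. The median log2 fold change, -0.03, became -0.104 (upper quartile), -0.139 (library totals), -0.128 and -0.138 (limma) and -0.0813 without members that overlap another gene. The 2 members past both thresholds became 1 where every library needed 10 counts, 0 with limma on log2(RPKM + 1) and 7 at a 1.5-fold threshold. Cox4i1 passed with DESeq2 (log2 fold change 0.105), the replicate block (0.0911), the length offset without (0.119) and with the block (0.119) and the non-robust fit (0.0911), and turned negative under library totals (-0.0135) and both limma settings (-0.0134 and -0.0135), and its adjusted p over all alternatives lay between 0.00975 and 0.789. Sdhc, not called anywhere, turned positive with the length offset without (0.00115) and with the block (0.00236). The summed share turned from -2.66% to 4.66% over TMM effective sizes. Leaving out 1 library at a time gave 20 to 25 higher and 19 to 26 lower members, 2 past both thresholds, a median of -0.0761 (without control replicate 2) to -0.0252, a Cox4i1 change of 0.0693 to 0.103 (past the threshold without control replicate 3), a Sdhc change of -0.0921 to 0.0745, a log2 difference of Cox4i2 to Cox4i1 of 1.24 to 1.80, and a summed share of -3.44% to -2.08%. The replicate block gave 27 higher and 24 lower members, with a median of -0.0335. Among the 29 members followed through the alternatives, it changed no call other than that of Cox4i1. Calls of the other members under the block are not given. The causes were not tested. No value is given for Ndufa4l2 or its ratio to Ndufa4 under any alternative, since both groups were at the floor. Depth limits Cox4i2, Cox6a2, Cox7a1, Cox7b2 and Atp5s, whose counts were 38 or fewer in every library.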

Other observations

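Regulators of mitochondrial gene expression were mixed. Of 18 tested genes, 7 were higher and 5 lower, 5 and 3 under all 4 scalings. The called share was 66.7%, beside 62.8% of all tested genes. Ppargc1a, the coactivator PGC-1alpha, had raw counts of 37, 36 and 34 in the control libraries and 92, 96 and 93 in the H/R libraries, and its log2 fold change was 1.53 (SE 0.177, adjusted p = 3.04e-09) (edgeR, Benjamini-Hochberg adjusted). All H/R libraries were far above control, at a low level. Rbpj, the DNA-binding partner of Notch, rose with 1.14 (adjusted p = 3.02e-17) and Yy1 with 0.47 (adjusted p = 1.39e-11). Nrf1, which binds the letters searched in the promoters, had 0.16 (adjusted p = 0.00835) and was not called under all 4 scalings. The 5 lower genes included 3 called under all 4 scalings: log2 fold changes were -0.45 (adjusted p = 4.26e-06) for Polrmt, the RNA polymerase, -0.40 (adjusted p = 9.05e-05) for Tfb2m, its initiation factor, and -0.24 (adjusted p = 0.000361) for Tfam, which packs mitochondrial DNA. The others were Tfb1m and Polg, with -0.44 (adjusted p = 0.0126) and -0.13 (adjusted p = 0.0222).

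The 13 subunits encoded by mitochondrial DNA held 4 higher and no lower call, all 4 under all 4 scalings, with a median log2 fold change of 0.17. The called share was 30.8%, beside 62.8% of all tested genes called and 31% called higher. Mt-Co1, the catalytic subunit of complex IV, rose by 0.50 (adjusted p = 1.56e-11) on the log2 scale and mt-Nd2, a pump subunit of complex I, by 0.34 (adjusted p = 0.0018). The remaining calls were mt-Nd5 and mt-Nd6, with 0.29 and 0.24. Mt-Nd6 is the protein gene on the opposite strand of this genome, and whether reads were counted by strand is not given in the sources used here. Genes of the mitochondrial genome held 1.32% to 1.47% of control counts and 1.49% to 1.57% of H/R counts.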
